A study of Mus musculus with 29 samples.

Results

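The genes described here are 10 transcripts by which resident perivascular macrophages are recognised, Lyve1, Cd163, Mrc1, Folr2, Csf1r, Adgre1, Vsig4, F13a1, Pf4 and Cbr2. They were taken as a written list and matched by symbol to the Ensembl identifiers of the count table, which holds 56748 genes. All 10 were in the table, and 9 of them were among the 12353 genes with enough reads for testing, while Vsig4 was below that limit. The RNA came from the aortic arch of 29 mice with an F1 C57BL6J/FVB hybrid background. WT littermates and Ercc1Δ/- mice were studied when 6 weeks old on an ad libitum (AL) diet, or when 22 weeks old on either AL or dietary restriction (DR). ERCC1 belongs to an endonuclease of DNA repair, and the Ercc1Δ/- mice carry 1 null and 1 truncated allele in every cell, so no comparison here isolates the macrophages. DR was begun at 7 weeks of age and reached 30% less food from 9 weeks on. All mice received AIN93G pellets, were housed individually and were perfused with saline before the arch was taken. The groups held 5 mice each at 6 weeks, 4 each at 22 weeks on AL and 5 each at 22 weeks on DR, after sample 003, a WT mouse on AL with too few reads, was left out. Each group held mice of both sexes.

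Tissue macrophages that settle along vessels live in the adventitia, the outer coat of an artery, where they renew themselves locally and depend on signalling through the receptor CSF1R. They take up hyaluronan, haemoglobin bound to haptoglobin, glycoproteins and folate through the receptors LYVE1, CD163, MRC1 (CD206) and FOLR2. They are told apart from recruited monocytes and from lipid-laden macrophages mainly by these scavenger receptors. They also make the secreted proteins F13A1, the A chain of coagulation factor XIII, and PF4, a chemokine that platelets also store. Neither protein is made by them alone. ADGRE1 is the F4/80 antigen of mouse macrophages at large, VSIG4 is a complement receptor, and CBR2 is a carbonyl reductase that is also made by cells other than macrophages.

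RefSeq promoter windows of 300 bases, from 250 before to 50 after a transcription start, were at hand for 7 of the 10 genes in the build GRCm38.p6. Those of Mrc1 (chr2:14229164-14229463, plus strand), F13a1 (chr13:37050195-37050494, minus strand), Cd163 (chr6:124304401-124304700, plus strand) and Cbr2 (chr11:120731972-120732271, minus strand) are shown, because the first 3 genes varied together between mice whereas Cbr2 did not vary with them. They are written 5′ to 3′ on the strand of the gene. The capitals mark the letters GAGGAA, a core of the sites bound by PU.1, the lineage factor of macrophages, or TGCTGA, a part of the sites bound by the MAF factors, on either strand. No marked stretch of one overlapped the other.
Mrc1: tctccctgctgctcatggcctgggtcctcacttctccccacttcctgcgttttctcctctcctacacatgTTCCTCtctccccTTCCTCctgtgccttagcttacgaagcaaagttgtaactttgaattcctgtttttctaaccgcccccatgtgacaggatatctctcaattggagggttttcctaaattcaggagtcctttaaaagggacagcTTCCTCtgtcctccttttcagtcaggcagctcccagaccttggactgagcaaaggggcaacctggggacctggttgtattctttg
F13a1: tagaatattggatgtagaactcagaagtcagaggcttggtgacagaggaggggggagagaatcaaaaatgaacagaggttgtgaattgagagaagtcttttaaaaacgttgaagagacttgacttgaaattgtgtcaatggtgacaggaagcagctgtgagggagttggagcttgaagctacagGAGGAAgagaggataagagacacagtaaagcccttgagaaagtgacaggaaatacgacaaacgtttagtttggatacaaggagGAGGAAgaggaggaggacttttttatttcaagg
Cd163: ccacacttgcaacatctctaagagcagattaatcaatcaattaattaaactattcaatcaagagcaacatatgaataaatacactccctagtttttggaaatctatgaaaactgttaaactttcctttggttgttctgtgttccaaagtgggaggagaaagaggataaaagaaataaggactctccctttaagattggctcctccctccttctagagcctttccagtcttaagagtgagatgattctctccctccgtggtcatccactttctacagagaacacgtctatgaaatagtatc
Cbr2: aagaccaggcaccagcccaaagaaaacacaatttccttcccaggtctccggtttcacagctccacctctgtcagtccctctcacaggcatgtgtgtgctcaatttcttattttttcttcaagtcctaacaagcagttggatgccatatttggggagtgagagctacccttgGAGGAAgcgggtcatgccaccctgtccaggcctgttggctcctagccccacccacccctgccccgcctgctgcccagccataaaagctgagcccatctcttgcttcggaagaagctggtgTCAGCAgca
The PU.1 core was found 3 times in the window of Mrc1, 2 times in that of F13a1, 1 time in that of Cbr2 and not in that of Cd163. Over the 9 windows of the 7 genes, 6 windows held the PU.1 core and 4 held the MAF letters, and 28.3% and 19.5% of 32851 mouse promoter windows of the same length held these letters. Such matches describe the sequence and are not binding sites.

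Counts on genes totalled 921167 to 9616382 per sample with a median of 3256708 over the 28 samples, and the Ercc1Δ/- mice on DR had 921167 to 2572523, below every WT mouse on DR. Levels are given in counts per 1000000 counts on the tested genes (CPM), after scaling by trimmed mean of M values (TMM), and the mice of a group are listed by sample number. Ercc1 itself was 31.1 ± 2.35 CPM (SD, n = 4) in WT and 16.0 ± 1.99 CPM (SD, n = 4) in Ercc1Δ/- mice at 22 weeks on AL. Its level was lower in Ercc1Δ/- mice at both ages and on both diets (log2 fold changes -1.42, -0.96 and -1.01; edgeR adjusted p at most 0.00278), although 1 WT mouse of 6 weeks lay within the Ercc1Δ/- range of that age. Sample 016, a male Ercc1Δ/- mouse on DR, stood apart. A list of 12 genes of serous cavity macrophages had been written after the genes of this sample were known. Of these, 10 were higher in sample 016 than in any other mouse, while Gata6 and Icam2 were not. The 12 together reached 2752 CPM against 377.6 to 483 in the rest of its group. On AL at 22 weeks this sum was 342.5 to 487.9 CPM in Ercc1Δ/- mice and 158.9 to 185.1 CPM in WT mice. Values that rest on sample 016 are given with and without it.

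Cbr2 was the most abundant of the 10 genes. Per kilobase of exon sequence its median over the 28 mice was 275 CPM, while Lyve1 had 9.74, F13a1 8.70, Folr2 6.25, Csf1r 6.02, Cd163 5.53 and Mrc1 4.07 CPM per kilobase. Pf4 with 2.37, Adgre1 with 2.27 and Vsig4 with 1.63 had the lowest medians. The reads of Vsig4 ran from 0 to 26 per sample and those of Folr2, Pf4 and Adgre1 began at 6, 5 and 4, so counting error is largest for these 4 genes. In the build GRCm39, Mrc1 (ENSMUSG00000026712, chr2:14234151-14336926), Cd163 (ENSMUSG00000008845, chr6:124281606-124307560), F13a1 (ENSMUSG00000039109, chr13:37051152-37234277) and Adgre1 (ENSMUSG00000004730, chr17:57665573-57790527) lie on different chromosomes. Lyve1 (ENSMUSG00000030787, chr7:110448585-110462460) and Folr2 (ENSMUSG00000032725, chr7:101489195-101506401) share chromosome 7, and the others are Cbr2 (ENSMUSG00000025150, chr11:120620312-120622940), Pf4 (ENSMUSG00000029373, chr5:90918479-90922110), Vsig4 (ENSMUSG00000044206, chrX:95290807-95337044) and Csf1r (ENSMUSG00000024621). The counts cover whole genes and do not tell isoforms apart.

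**Figure D1:**
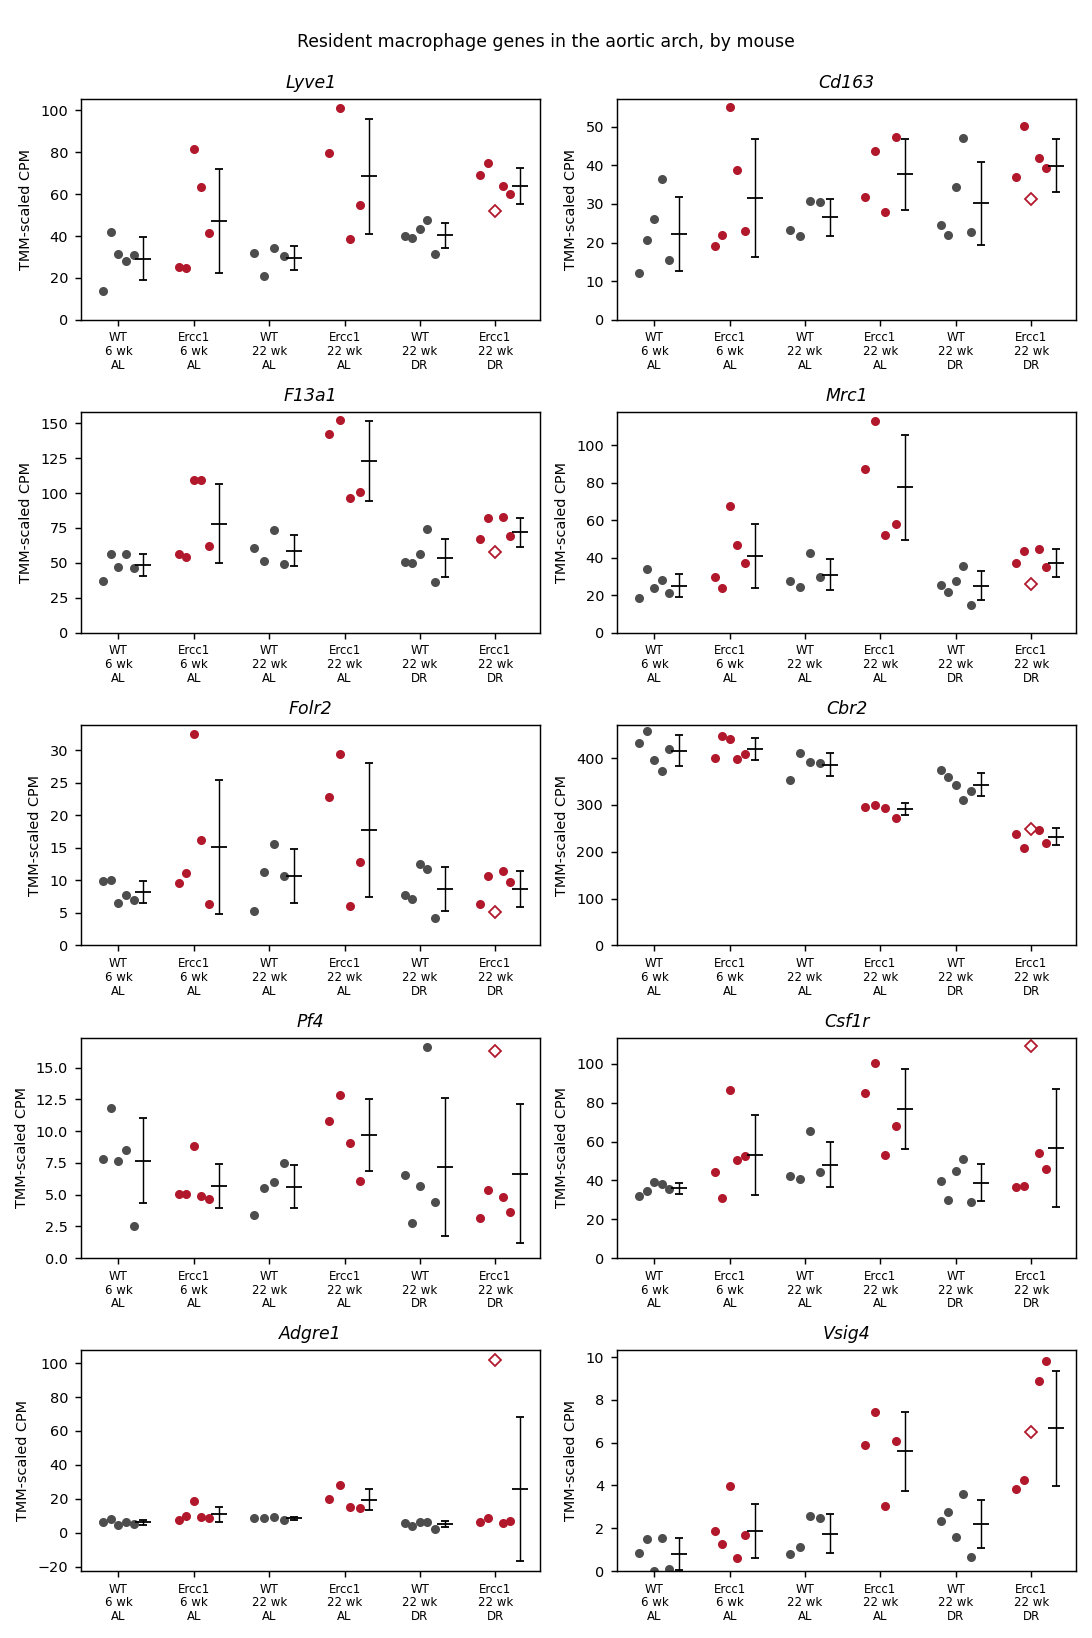
TMM-scaled CPM (vertical axes, linear) of the 10 genes in each of the 28 mice, by genotype, age and diet (horizontal axes; WT grey, Ercc1Δ/- red, mouse 016 an open diamond), with the mean and SD of each group beside its points. The group mean was highest in Ercc1Δ/- mice at 22 weeks on AL for Lyve1, F13a1, Mrc1, Folr2, Pf4 and Csf1r, Cbr2 was lowest in Ercc1Δ/- mice on DR, and mouse 016 lay far above its group in Adgre1, Csf1r and Pf4.

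The first question was how the genes differed between the genotypes at 22 weeks on AL. The mannose receptor gene Mrc1, the F4/80 gene Adgre1 and F13a1 were higher in Ercc1Δ/- mice and Cbr2 was lower. These 4 of the 9 tested genes passed, where passing needed a change of 1.2-fold or more with an edgeR adjusted p no higher than 0.05, and 12.0% of all tested genes passed. The median log2 fold change of the 9 genes was 0.95, beside 0.03 over all tested genes. In 4 of them every Ercc1Δ/- mouse lay above every WT mouse, and in Cbr2 every one lay below. Of all tested genes 9.01% lay above and 9.63% below in this way. As the tissue was sequenced in bulk, fewer cells of a type and less RNA per cell cannot be told apart in this or any later result.

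Mrc1 was 27.4, 24.1, 42.7 and 29.5 CPM in the 4 WT mice and 87.2, 113, 52.3 and 58.1 CPM in the 4 Ercc1Δ/- mice. The groups did not overlap, and the fold change fitted with sex in the model was 2.62 (log2 fold change 1.39 ± 0.33 (SE), adjusted p = 0.0119, edgeR). Adgre1 was 8.69, 8.63, 9.51 and 7.32 CPM in WT and 19.8, 27.9, 15.2 and 14.9 CPM in Ercc1Δ/- mice, a fitted fold change of 2.40 without overlap (log2 fold change 1.26 ± 0.25 (SE), adjusted p = 0.00149, edgeR). F13A1, a transglutaminase that crosslinks fibrin and matrix proteins, is made by this kind of macrophage in many tissues. Its transcript was 60.3, 51.6, 73.5 and 49.2 CPM in WT and 142, 152, 96.2 and 101 CPM in Ercc1Δ/- mice (log2 fold change 1.05 ± 0.25 (SE), adjusted p = 0.0117, edgeR), again without overlap. Without WT mouse 018, the only female left in its group, Mrc1 and F13a1 no longer passed, with adjusted p of 0.0705 and 0.0669, and 2 genes passed in all. The call of Adgre1 was lost when all 28 samples were fitted together and when counts were thinned.

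The hyaluronan receptor gene Lyve1 was 31.9, 21.0, 34.1 and 30.3 CPM in WT and 79.8, 101, 38.6 and 54.7 CPM in Ercc1Δ/- mice. These groups did not overlap either, yet Lyve1 did not pass (log2 fold change 1.23, 95% interval 0.37 to 2.09, edgeR adjusted p = 0.0862). It passed with no sex term (adjusted p = 0.0464) and with all 28 samples in one fit (adjusted p = 0.0227). Lyve1 also marks lymphatic endothelium, whose 6 listed genes summed to 18.2 to 29.5 CPM in WT and 32.6 to 39.9 CPM in Ercc1Δ/- mice, with Prox1, its defining factor, at 0 in 14 of the 28 samples; their part in the result was not tested. The remaining genes that did not pass were Csf1r (log2 fold change 0.73, adjusted p = 0.0768), Pf4 (0.94, adjusted p = 0.0817), Folr2 (0.81, adjusted p = 0.283) and the haemoglobin receptor gene Cd163 (0.56, adjusted p = 0.327), all by edgeR. DESeq2 called Csf1r (adjusted p = 0.0428). Folr2 was 22.8, 29.4, 6.06 and 12.8 CPM in the Ercc1Δ/- mice and overlapped with the WT range of 5.27 to 15.5 CPM. Cd163 in Ercc1Δ/- mice was 31.8, 43.6, 28.0 and 47.3 CPM, beside 23.2, 21.6, 30.9 and 30.5 CPM in WT, and overlapped.

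Cbr2, the carbonyl reductase gene, went the other way. It was 352, 409.8, 391 and 390.4 CPM in WT and 296, 300.4, 293 and 272 CPM in Ercc1Δ/- mice. All 4 Ercc1Δ/- mice lay below all 4 WT mice, and the fitted fold change was 0.749 (log2 fold change -0.42 ± 0.09 (SE), adjusted p = 0.00316, edgeR). Genes of smooth muscle, the main cell of the wall, were lower in the same mice. Of 7 tested, 6 passed as lower with a median of -0.77, beside 12.0% of all tested genes passing in either direction. The part of these genes in the result was not tested.

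Vsig4 had too few reads for the main test. It was 0.790, 1.12, 2.55 and 2.47 CPM in WT and 5.88, 7.42, 3.03 and 6.08 CPM in Ercc1Δ/- mice at 22 weeks on AL, from 3 to 24 reads in WT and from 4 to 26 in Ercc1Δ/- mice. The groups did not overlap, and in a fit without the limit on low counts the log2 fold change was 1.89 ± 0.40 (SE, edgeR adjusted p = 0.000657). On DR, WT mice had 2.36, 2.76, 1.59, 3.58 and 0.661 CPM and Ercc1Δ/- mice 3.83, 4.27, 6.51, 8.89 and 9.83 CPM. On either diet every Ercc1Δ/- mouse lay above every WT mouse of that diet, and in Ercc1Δ/- mice the difference of DR from AL was 0.29 ± 0.34 on the log2 scale (edgeR adjusted p = 0.916 in the same fit).

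Within the Ercc1Δ/- group of 22 weeks on AL, the female mice 004 and 005 lay above the male mice 013 and 026 in 8 of the 9 tested genes, as in 23.4% of all tested genes. In WT mice on DR every female was above every male in 7 of the 9 (16.5% of all tested genes), and in Ercc1Δ/- mice on DR in 4 (10.2%). The order was the opposite in WT mice of 6 weeks, where every female was below every male in 3 of the 9, Folr2, Pf4 and Adgre1 (8.42% of all tested genes), and above in 0. In WT mice on AL the only female, 018, was above the males in 1 (23.7%) and below them in 4 (23.6%), and in Ercc1Δ/- mice of 6 weeks neither order was found in any of the 9. With so few mice of a sex this is a description. In the Ercc1Δ/- group of 22 weeks on AL the females 004 and 005 also had more counts on genes, 3855444 and 3351172. The males 013 and 026 had 1294980 and 1433979, so sex and depth cannot be told apart there. Sex was a term of the model, and among the males alone at 22 weeks on AL, 2 Ercc1Δ/- and 3 WT mice, Lyve1, F13a1, Mrc1 and Adgre1 lay higher and Cbr2 lower without overlap, where 19.6% of all tested genes lay higher and 19.6% lower.

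The same comparison at 6 weeks asked whether the difference was present early. None of the 9 tested genes passed, beside 1.72% of all tested genes, and DESeq2 called 0 as well. An unadjusted p under 0.05 by edgeR was found for 4 of the 9, and for 1576 of all 12353 tested genes. Of the 9 log2 fold changes 8 were above 0, with a median of 0.68, beside 0.01 over all tested genes. Mrc1 was 18.2, 33.8, 24.0, 27.9 and 21.2 CPM in WT and 29.9, 24.0, 67.7, 46.7 and 37.4 CPM in Ercc1Δ/- mice (log2 fold change 0.72, 95% interval 0.12 to 1.33, adjusted p = 0.331). F13a1 was 36.7, 56.0, 46.9, 56.6 and 46.1 CPM in WT and 56.4, 53.8, 109.5, 109 and 62.0 CPM in Ercc1Δ/- mice (adjusted p = 0.172). In both genes mice 015 and 023 were the highest of the Ercc1Δ/- group, and mice 002 and 008 lay within the WT range of 18.2 to 33.8 CPM for Mrc1. Mouse 015 was the highest of its group in 9 of the 10 genes. Cbr2 at this age was 416 ± 32.9 CPM (SD, n = 5) in WT and 419 ± 23.0 CPM (SD, n = 5) in Ercc1Δ/- mice, a log2 difference of 0.01 with a 95% interval -0.15 to 0.16.

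From 6 to 22 weeks on AL, no gene of the 9 passed in WT mice, where 0.219% of all tested genes did. None had an unadjusted p under 0.05 by edgeR, where 1067 of all 12353 tested genes did, and DESeq2 called 0. In Ercc1Δ/- mice Adgre1 rose and Cbr2 fell, 2 of 9, beside 4.65% of all tested genes. Adgre1 went from 7.68, 10.1, 18.5, 9.47 and 8.92 CPM at 6 weeks to 19.8, 27.9, 15.2 and 14.9 CPM at 22 weeks (log2 fold change 0.94 ± 0.24 (SE), adjusted p = 0.0232, edgeR), and mouse 015 of 6 weeks lay among the older mice. Cbr2 went from 400.3, 446, 441, 398 and 409 CPM to 296, 300.4, 293 and 272 CPM without overlap (log2 fold change -0.53 ± 0.08 (SE), adjusted p = 0.000334, edgeR). The share of all tested genes without overlap between the ages was not computed. Mrc1 (log2 fold change 0.99, adjusted p = 0.0864) and Pf4 (0.97, adjusted p = 0.135) did not pass by edgeR, and DESeq2 called Mrc1 (adjusted p = 0.0211).

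The call of Adgre1 with age was lost without mouse 002, 004, 005, 008 or 023, which left 1 gene each time. Without mouse 015, Mrc1, F13a1 and Csf1r passed too, 5 in all. The test of whether the age effect differed between the genotypes called 0 of the 9 genes by edgeR, and 0.785% of all tested genes. An unadjusted p under 0.05 by edgeR was found for 2 of the 9, and for 1404 of all 12353 tested genes. DESeq2 called 1, Cbr2, whose interaction term was -0.42 ± 0.12 on the log2 scale by edgeR (adjusted p = 0.109; DESeq2 adjusted p = 0.00396). The tests at 6 weeks, at 22 weeks and with age share samples.

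The next question was what DR did to these genes in Ercc1Δ/- mice of 22 weeks. F13a1, Mrc1 and Cbr2 were lower on DR than on AL, 3 of 9 beside 1.78% of all tested genes, and the other 6 did not pass. The median log2 fold change of the 9 was -0.42, beside -0.01 over all tested genes. F13a1 was 142, 152, 96.2 and 101 CPM on AL and 67.1, 82.3, 58.0, 82.6 and 69.3 CPM on DR, without overlap (log2 fold change -0.74 ± 0.15 (SE), adjusted p = 0.0122, edgeR). Mrc1 was 87.2, 113, 52.3 and 58.1 CPM on AL and 37.0, 43.8, 26.1, 44.4 and 35.2 CPM on DR, without overlap (log2 fold change -1.02 ± 0.23 (SE), adjusted p = 0.031, edgeR).

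Cbr2, already lower in Ercc1Δ/- mice on AL, was lower still on DR, with 296, 300.4, 293 and 272 CPM on AL and 238, 208, 249, 247 and 218 CPM on DR (log2 fold change -0.32 ± 0.08 (SE), adjusted p = 0.0448, edgeR). This call lay at the limit, and the settings it rests on were chosen after first calls had been seen. It was lost under 5 other ways of processing and without any of 12 of the 18 mice in the fit, although all values of the DR mice were below all those of the AL mice. With mouse 016 included, the share of all tested genes lying apart in this way was not computed. The call of Mrc1 was lost without mouse 004, 005, 014, 016, 022, 026 or 029, with adjusted p up to 0.0889. Leaving out 004, 005, 014, 026 or 029 left 1 gene, and among the 3 genes only F13a1 kept its call whichever of the 18 mice was omitted. The call of F13a1 was lost with sample 003 added and with all 28 samples in one fit.

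Lyve1 on DR was 69.0, 74.8, 52.1, 64.0 and 60.0 CPM, within the AL range of 38.6 to 101 CPM, and differed by -0.11 on the log2 scale (95% interval -0.50 to 0.29, edgeR adjusted p = 0.865). Cd163 on DR was 37.0, 50.2, 31.3, 41.8 and 39.3 CPM (log2 fold change 0.11, 95% interval -0.30 to 0.53, edgeR adjusted p = 0.864). Folr2 was 6.39, 10.7, 5.21, 11.5 and 9.83 CPM on DR, from 8 to 31 reads a sample, and it did not pass (log2 fold change -0.97, 95% interval -1.61 to -0.34, adjusted p = 0.132).

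Mouse 016 decided the result for the F4/80 gene. Adgre1 was 6.39, 8.55, 102, 5.55 and 6.72 CPM in the 5 Ercc1Δ/- mice on DR, in the order 006, 014, 016, 022 and 029. With all 5 the diet difference was 0.17 ± 0.78 on the log2 scale (edgeR adjusted p = 0.953). Without 016 it was -1.60 ± 0.28 (edgeR adjusted p = 0.00338), and the 4 remaining mice lay below all AL mice. Csf1r in the same mice was 36.4, 37.4, 109, 54.0 and 46.0 CPM and Pf4 3.19, 5.34, 16.3, 4.81 and 3.62 CPM. Without 016, Csf1r was -0.79 (adjusted p = 0.0572), Pf4 -1.21 (adjusted p = 0.184) and Mrc1 -0.95 (adjusted p = 0.0572) on the log2 scale by edgeR, while Adgre1, F13a1 and Cbr2 passed. These 3 of 9 stand beside 1.64% of all tested genes, and 5 of the 9 then lay below AL without overlap, as did 4.70% of all tested genes.

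In mouse 016 Adgre1, Csf1r, Pf4 and Cbr2 were the highest of its group and Lyve1, Cd163, F13a1, Mrc1 and Folr2 the lowest. It was also the highest of all 28 mice in 7 of 18 general macrophage genes, among them Lyz2 with 793 CPM, and in 6 of 10 monocyte and inflammatory genes, which summed to 141 CPM against 5.69 to 27.4 CPM in the rest of its group. The cavity macrophage genes Alox15 and Cd5l had 422 and 100 reads there, and the part of these genes in the result was not tested.

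In WT mice none of the 9 genes passed between DR and AL, where 1.28% of all tested genes did. An unadjusted p under 0.05 by edgeR was found for 2 of the 9, and for 1596 of all 12353 tested genes. DESeq2 called 0. Lyve1 was 31.9, 21.0, 34.1 and 30.3 CPM on AL and 39.9, 39.0, 43.3, 47.5 and 31.5 CPM on DR (log2 fold change 0.41, 95% interval 0.03 to 0.79, adjusted p = 0.381). Mrc1 was 25.4, 21.7, 27.8, 35.5 and 14.7 CPM on DR (log2 fold change -0.41, 95% interval -0.84 to 0.02, adjusted p = 0.454). Adgre1 was the 1 tested gene of the 9 whose WT groups did not overlap, as 2.68% of all tested genes lay lower in this way, with 5.99, 3.94, 6.36, 6.51 and 2.48 CPM on DR below all AL mice (log2 fold change -0.71, adjusted p = 0.78, and without 016 in the fit adjusted p = 0.078). The test of whether diet acted differently in the genotypes called 0 of the 9 by edgeR and 0 by DESeq2, beside 0.105% of all tested genes by edgeR. By edgeR 1 of the 9 had an unadjusted p under 0.05, as had 1079 of all 12353 tested genes. A difference in the response to DR between the genotypes was therefore not shown for any of them.

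**Figure D2:**
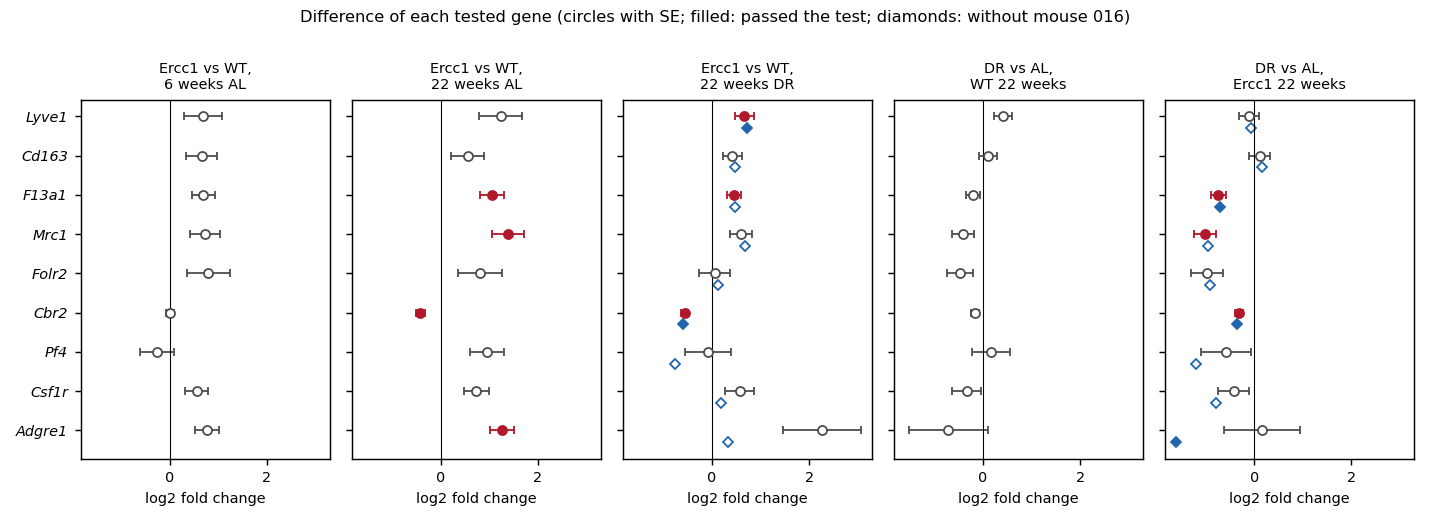
Log2 fold change (horizontal axes) of the 9 tested genes (vertical axis) in 5 comparisons, as circles with SE, filled where the gene passed the test; diamonds give the 2 comparisons with Ercc1Δ/- mice on DR without mouse 016. Mrc1, F13a1 and Adgre1 were higher in Ercc1Δ/- mice at 22 weeks on AL, Cbr2 lay left of 0 in all 4 comparisons at 22 weeks, and Adgre1 moved from 0.17 to -1.60 in the diet comparison without 016.

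On DR, Lyve1, F13a1 and Cbr2 passed between the genotypes, 3 of 9 beside 13.0% of all tested genes. F13a1 and Cbr2 had also passed on AL, while Lyve1 had not. Lyve1 was 39.9, 39.0, 43.3, 47.5 and 31.5 CPM in WT and 69.0, 74.8, 52.1, 64.0 and 60.0 CPM in Ercc1Δ/- mice on DR, a fitted fold change of 1.59 without overlap (log2 fold change 0.67 ± 0.19 (SE), adjusted p = 0.022, edgeR). The 6 lymphatic genes summed to 20.8 to 32.2 CPM in these WT and 31.9 to 52.8 CPM in these Ercc1Δ/- mice, and of the 2 tested Pdpn passed as higher (log2 fold change 0.99, adjusted p = 0.00322) and Flt4 did not (0.39, adjusted p = 0.241); their part in the result was not tested. Cbr2 was 374, 359, 343, 309.8 and 330.1 CPM in WT and 238, 208, 249, 247 and 218 CPM in Ercc1Δ/- mice, again without overlap (log2 fold change -0.56 ± 0.08 (SE), adjusted p = 2.26e-05, edgeR). The share of all tested genes without overlap between the genotypes on DR was not computed. F13a1 was 50.4, 50.04, 56.4, 74.5 and 36.3 CPM in WT and overlapped with the Ercc1Δ/- mice (log2 fold change 0.45 ± 0.14 (SE), adjusted p = 0.0425, edgeR). Mrc1 did not pass by edgeR (log2 fold change 0.61, adjusted p = 0.0889) and passed by DESeq2 (adjusted p = 0.0383).

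Without mouse 016, Lyve1 (0.71, adjusted p = 0.0315) and Cbr2 (-0.59, adjusted p = 4.63e-05) passed by edgeR on the log2 scale, 2 of 9 beside 10.3% of all tested genes, and F13a1 was 0.48 (adjusted p = 0.0505). Adgre1 was 2.26 (adjusted p = 0.0851) with 016 and 0.34 (adjusted p = 0.554) without it. The call of Lyve1 was lost without mouse 006, 028 or 029, which left 1 gene, Cbr2. That of F13a1 was lost without any of 11 of the 18 mice, and also with sample 003 added, with no sex term, with all 28 samples in one fit and with thinned counts (adjusted p from 0.111 to 0.179). The comparisons of genotype on DR and on AL and of the 2 diets share their samples.

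Mrc1 and Lyve1 were further compared by the ratio of their reads in the same sample. This ratio was picked after the values were seen and is therefore given without a test. It was 0.860, 1.15, 1.25 and 0.973 in WT mice on AL and 0.636, 0.556, 0.641, 0.747 and 0.466 in WT mice on DR. In Ercc1Δ/- mice it was 1.09, 1.12, 1.35 and 1.06 on AL and 0.537, 0.586, 0.500, 0.694 and 0.586 on DR, mouse 016 having the lowest. Every DR mouse of either genotype lay below every AL mouse of 22 weeks, with group means of 1.06 ± 0.18 and 1.16 ± 0.13 on AL and 0.61 ± 0.10 and 0.58 ± 0.07 on DR (SD, n = 4 or 5). At 6 weeks the ratio ran from 0.69 to 1.33 in WT and from 0.74 to 1.18 in Ercc1Δ/- mice, and sample 003, the WT mouse on AL left out for its few reads, had 1.80 from 9 and 5 reads.

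Of the 36 pairs among the 9 tested genes, 2 had ratios that did not overlap between AL and DR in both genotypes, Mrc1 to Lyve1 and F13a1 to Lyve1. Mrc1 and Lyve1 were each also set against the 12153 other tested genes that had reads in every sample of 22 weeks. The ratio of Mrc1 was lower on DR without overlap in both genotypes for 0.634% of them. That of Lyve1 was higher for 0.197%. Both genes come from the picked pair, so these shares do not measure how rare such a pair is. The share over all pairs of tested genes was not computed.

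**Figure D3:**
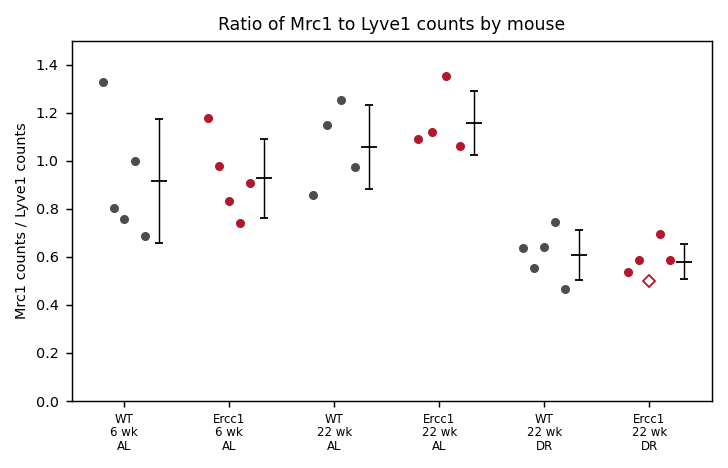
Mrc1 reads divided by Lyve1 reads in each of the 28 mice (vertical axis, linear from 0), by genotype, age and diet (horizontal axis), with the mean and SD of each group beside its points and mouse 016 as an open diamond. All 10 mice on DR lie between 0.47 and 0.75, below the 8 AL mice of 22 weeks at 0.86 to 1.35.

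Mice of the same group varied together in 8 of the 9 tested genes. Levels were put on a log2 scale and centred within groups, so that differences between groups play no part, and each gene was correlated with the mean of the other 8 over the 27 mice without 016. Pearson's r was 0.95 for Mrc1, 0.86 for F13a1, 0.81 for Folr2, 0.80 for Csf1r, 0.77 for Adgre1, 0.75 for Lyve1, 0.65 for Cd163 and 0.57 for Pf4. For Cbr2 it was 0.00. The sexes differed in order within several groups, and after centring by group and sex, an alternative added after the data were seen, r was 0.94 for Mrc1, 0.82 for F13a1 and Csf1r, 0.78 for Lyve1, 0.74 for Folr2, 0.70 for Cd163, 0.68 for Adgre1, 0.42 for Pf4 and 0.12 for Cbr2. These are descriptions over mice that share groups, and scarce genes such as Pf4 carry more counting error. The closest pair was F13a1 and Mrc1 with 0.92. With 016 the r of Adgre1 fell to 0.41 while that of Mrc1 was 0.80, and Cbr2 remained at 0.03.

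Cbr2 differed from the other tested genes of the list in its level and in this covariation, and in the direction of its differences between genotypes on AL at 22 weeks and with age in Ercc1Δ/- mice, whereas on DR against AL in Ercc1Δ/- mice it was lower as F13a1 and Mrc1 were; which cells made it cannot be told from these bulk libraries. Over all lists with at least 2 tested genes its r with the centred list mean ran from -0.33 for 6 fat genes to 0.44 for 5 tested serous cavity macrophage genes, and it was 0.38 for 6 MHC class II genes, 0.32 for 2 platelet genes and 0.11 for 7 smooth muscle genes. The other 8 tested genes had r = 0.82 with 15 general macrophage genes and r = 0.77 with 12 further genes of resident macrophages, 0.51 with 2 monocyte genes, 0.47 with 6 fibroblast genes, 0.45 with the serous cavity genes and 0.44 with 7 mesothelial genes. It was 0.03 with 8 genes of lipid-associated macrophages and -0.15 with the smooth muscle genes.

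**Figure D4:**
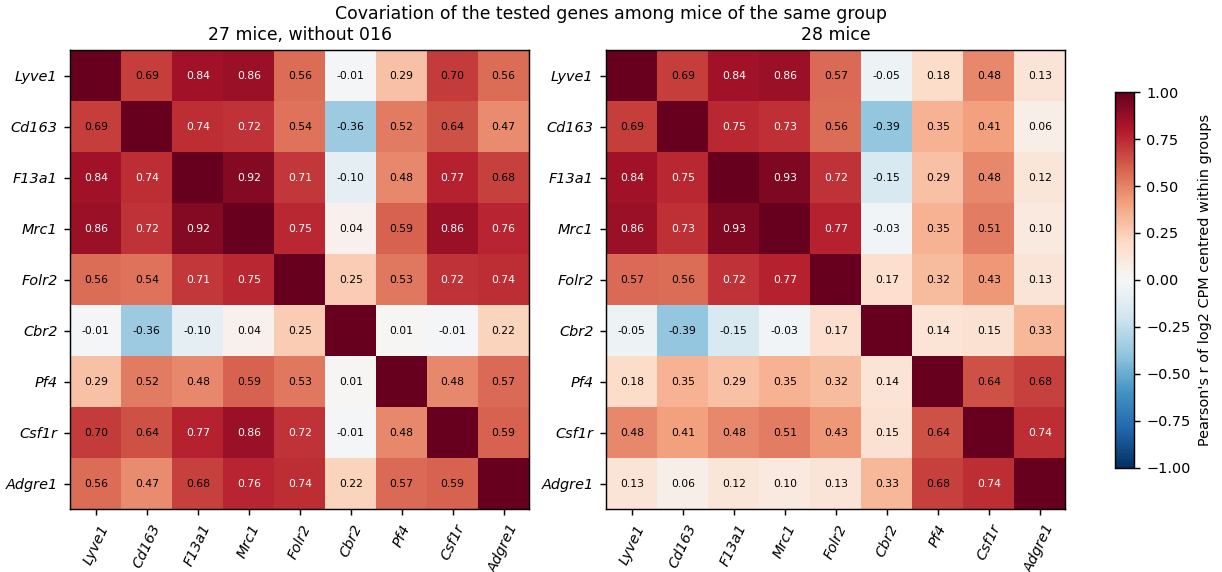
Pearson's r between the 9 tested genes (both axes) of log2 CPM centred within groups, over 27 mice without mouse 016 (left) and over all 28 (right); red is positive and blue negative. On the left Mrc1 and F13a1 reach 0.92, and Cbr2 lies between -0.36 and 0.25 with every other gene; on the right Adgre1 lies between 0.06 and 0.13 with Lyve1, Cd163, F13a1, Mrc1 and Folr2 and reaches 0.74 with Csf1r.

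The 10 further genes most like the mean of the 9 over the 27 mice were Lyz2 with r = 0.82, C1qa, Retnla and Snx5 with 0.78, Clec10a with 0.77, C1qb with 0.76, C1qc with 0.75, Cd209g and Lcp1 with 0.73 and Mgl2 with 0.71. Lyz2 encodes lysozyme, the C1q genes the first component of complement, and Clec10a, Mgl2 and Cd209g lectins of macrophages and dendritic cells. Without the 2 mice farthest from the median of the mean, these values were 0.63 to 0.80. Over all 28 mice they were 0.59 to 0.79, and 5 of the 10 genes were then still among the closest 10.

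The genes around the members were described by written lists. Of all tested genes 12.0% passed between genotypes at 22 weeks on AL, the comparison of this and the next paragraph. Of 15 further genes of resident macrophages, 12 were tested, and at 22 weeks on AL 6 passed as higher in Ercc1Δ/- mice and 1 as lower, with a median log2 fold change of 0.36. Those with the smallest adjusted p were Ltc4s (1.77, adjusted p = 0.00401), which makes leukotriene C4, and Cd38 (1.49, adjusted p = 0.0043), an enzyme that consumes NAD. Mertk (-0.51, adjusted p = 0.0108), a receptor for apoptotic cells, was lower. All 15 tested of 18 general macrophage genes were higher, with a median of 1.73, and the smallest adjusted p were those of Mpeg1 (2.29, adjusted p = 4.17e-07), Ctss (2.14, adjusted p = 1.22e-05) and Cd68 (2.09, adjusted p = 3.11e-05). Of 8 tested genes of lipid-associated macrophages 7 were above 0 and 4 passed as higher. Both tested monocyte genes, Plac8 and Ccr2, passed as higher too. The median of the 9 members was 0.95 in the same fit. Whether these medians differ was not tested.

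Around CSF1R, the receptor for CSF1 and IL34, 10 of 11 genes were tested and 5 passed as higher in Ercc1Δ/- mice at 22 weeks on AL. Among them by edgeR were Tyrobp (2.11, adjusted p = 0.000924) and Spi1 (1.31, adjusted p = 0.00634), the gene of PU.1, which both also stand in the general list. The ligand gene Csf1 was 154 ± 29.9 CPM in WT and 187 ± 25.2 CPM (SD, n = 4 each) in Ercc1Δ/- mice and did not pass (log2 fold change 0.26, adjusted p = 0.21), and Il34 had 4.47 CPM or less in every mouse. Of 11 genes of haem and iron handling around CD163, 9 were tested and 5 passed as higher. The smallest adjusted p by edgeR were those of the ferritin light chain gene Ftl1 (0.95, adjusted p = 1.44e-05) and Hmox1 (1.87, adjusted p = 0.000774), haem oxygenase 1. Cd163 itself did not pass. Among 12 ligands and partners of the members, 6 were tested. Of these, Mrc2 and C3, whose product is bound by VSIG4 when cleaved, passed as higher (log2 fold changes 0.46 and 0.94, edgeR adjusted p = 0.0137 and 0.0347).

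At 6 weeks all 15 tested general macrophage genes were above 0 in Ercc1Δ/- against WT mice. Of these, 3 already passed as higher by edgeR, Mpeg1 (1.27, adjusted p = 0.00623), Cd68 (1.24, adjusted p = 0.0282) and Ctss (1.15, adjusted p = 0.0336). Mertk passed as lower (-0.61, adjusted p = 0.0075, edgeR). Of all tested genes 1.72% passed at 6 weeks. In Ercc1Δ/- mice on DR against AL, 13 of the 15 general macrophage genes were below 0 and 5 passed as lower. The smallest adjusted p by edgeR were those of C1qa (-0.999, adjusted p = 0.000133) and C1qb (-0.99, adjusted p = 0.00116). With mouse 016 left out, 10 of the 15 passed as lower, and the medians were -0.87 with it and -1.10 without it. Of all tested genes 1.78% passed with 016 and 1.64% without it. Of the further resident genes Gas6 (-0.42, adjusted p = 0.0232), a ligand of MERTK, was lower, and without 016 Clec10a as well. All 6 tested MHC class II genes passed as lower on DR in WT mice, with a median of -2.30, where 1.28% of all tested genes passed. In Ercc1Δ/- mice all 6 were below 0 with a median of -1.51, and H2-Eb1, H2-Ab1 and H2-Aa passed as lower, 3 of the 6. Without mouse 016 these 3 and Cd74 passed by edgeR. The test of whether diet acted differently in the genotypes called 0 of the 6. The log2 fold changes of the 6 in the comparison of genotypes at 22 weeks on AL had a median of 0.37 with none passing.

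PF4 is stored in platelets, and 8 platelet genes were summed to place the level of Pf4. Mouse 021, a WT mouse on DR with 16.6 CPM of Pf4 where the next of its group had 6.53, also had the highest platelet sum of its group, 49.8 CPM against 3.63 to 8.27 in the other 4. Mouse 016, with 16.3 CPM of Pf4, had a platelet sum of 9.77 CPM, within the 4.14 to 16.0 CPM of the rest of its group. The highest platelet sum of all, 76.3 CPM, was in WT mouse 001 of 6 weeks, whose Pf4 was 7.79 CPM. The part of platelets in the level of Pf4 was not tested.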

How the data were processed

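The authors moved the UMI barcodes to the read headers with UMI-tools 1.1.2, aligned the paired reads to GRCm39 with STAR 2.7.10a, removed duplicates by UMI and counted reads per gene with HTSeq 2.0.2. The deposited values are these raw counts, for 29 samples. Of all reads tallied, 12.6% to 18.7% per sample were assigned to no gene and left out. Strandedness of the counting is not given in the sources used here.

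Genes were kept if over 10 of the 28 samples had over 10 counts, and were tested with edgeR 4.0.16 (R 4.3.3) by the quasi-likelihood test, with TMM factors over the 28 samples, sex as a term and Benjamini-Hochberg adjustment over all 12353 genes. The AL groups (18 samples) and the 22-week groups (18 samples) were fitted apart. The quasi-dispersion method and the span of the TMM factors were changed after the calls of a first run had been seen. The test was checked on simulated counts. DESeq2 1.42.0, other filters and scalings, added or omitted samples and counts thinned to 921167 were alternatives. Named were all 10 members, genes of the lists, mostly those with the smallest adjusted p, and the 10 closest genes by Pearson's r. Some list genes, such as Prox1, Alox15, Cd5l, Csf1 and Il34, were named on other grounds. The members and lists were chosen with earlier results of these data known. Each mouse gave 1 sample.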

Additional observations from a re-analysis of the deposited data

Results flagged for a closer look

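In each group of 4 or 5 mice the highest and lowest level of each of the 10 genes was set against the rest of its group by Dixon's criterion, which marks about 1 group in 20 by chance. Of 60 groups, 7 held such a mouse, and 3 of these were mouse 016, an Ercc1Δ/- male on DR. In it Adgre1 was 101.6 CPM where the next mouse had 8.548, Csf1r was 109.4 CPM where the next had 54.05, and Pf4 was 16.28 CPM where the next had 5.342. In mouse 015, an Ercc1Δ/- male of 6 weeks, Adgre1 was 18.48 CPM where the next had 10.11, and Pf4 was 8.798 CPM, from 20 reads, where the next had 5.055. WT mouse 021 on DR had 16.6 CPM of Pf4 where the next had 6.531, and WT mouse 020 of 22 weeks on AL had 65.65 CPM of Csf1r where the next had 44.13.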

How the results depend on the processing

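No paired analysis was possible because each mouse gave 1 sample. Of the 9 tested genes, 4 passed between genotypes at 22 weeks on AL and 2 with age in Ercc1Δ/- mice, and after thinning to the smallest total 2 and 1 did. DESeq2 called 1 gene, Cbr2, for the interaction of genotype and age, where edgeR called 0. DESeq2 also called Csf1r between genotypes on AL, Mrc1 with age in Ercc1Δ/- mice and Mrc1 between genotypes on DR, which edgeR did not. For DR against AL in Ercc1Δ/- mice 3 passed, but 1 did with no filter on low counts, 1 with sample 003 added and 1 with all 28 samples in one fit; the cause was not tested. With each mouse omitted in turn, the counts ran from 2 to 5 between genotypes at 22 weeks on AL (2 without 018), from 1 to 5 with age in Ercc1Δ/- mice (5 without 015), from 1 to 4 between genotypes on DR (1 without 006, 028 or 029) and from 1 to 3 for DR in Ercc1Δ/- mice. The other 5 comparisons gave 0 each time. Except without mouse 016, the share of all tested genes passing under these alternatives is not given here. A change in the counts of the 9 genes can therefore not be set against a change over all genes. The Adgre1 difference of DR from AL in Ercc1Δ/- mice went from 0.165 to -1.598 on the log2 scale without mouse 016, and ran from -1.598 to 0.666 over all omissions. The 2 alternatives on the dispersion method and TMM span were added after the data were seen, and under the settings first run the diet call of Cbr2 was lost. With no filter and with all 28 samples in one fit the calls of Mrc1 for DR in Ercc1Δ/- mice and of Lyve1 between genotypes on DR were lost, and with sample 003 added or all 28 samples that of F13a1 for DR was lost. The genotype call of F13a1 on DR was lost with sample 003, no sex term, all 28 samples or thinning, and Lyve1 on AL passed with no sex term or all 28 samples. Cbr2 kept its genotype call on AL in every setting but thinning, and its genotype call on DR and its age call in every setting run. Of the 10 genes closest to the members, 5 were kept over all 28 samples and 8 with Spearman's rho. Depth limits Vsig4, Pf4, Adgre1 and Folr2, and the intervals cover spread between these mice.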
